A study of Homo sapiens with 2 samples.

Results

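Genes of major histocompatibility complex (MHC) class I antigen presentation were followed in hypoxic hepatoma cells with and without overexpressed NFX1, a zinc-finger transcription factor. The set was chosen by name: the heavy chains HLA-B, HLA-C, HLA-E and HLA-F, the light chain B2M, the peptide transporter subunits TAP1 and TAP2, the loading chaperone tapasin (TAPBP) and the transactivator NLRC5. A row under the gene's own symbol was found for 8 of the 9 genes, out of 24991 genes with a symbol of their own, and 7 of these 8 reached an FPKM of at least 1 in a library, as did 11182 genes in all. FPKM is fragments per kilobase of transcript scaled to the number of mapped fragments, so it is a level corrected for length. The set does not hold every gene of the class I pathway.

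The cells were PLC/PRF/5, an established human hepatocellular carcinoma line, in DMEM with fetal bovine serum. The vector library came from cells with the genotype EV, the empty vector, and the NFX1 library from cells with the genotype NFX1_OE. Both were kept under hypoxia, so no value here compares hypoxia with normal oxygen. The labels do not give the oxygen level, the time under hypoxia, the promoter of the construct, or whether the cells were a clone or a pool. Each group is 1 library with no replicate, so a difference between the 2 libraries cannot be told apart from a difference between cultures.

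A class I molecule is a heavy chain paired with beta-2-microglobulin and a short peptide, carried to the cell surface for inspection by CD8 T cells and natural killer cells. Peptides cut by the proteasome are pumped into the endoplasmic reticulum by TAP1 and TAP2, and tapasin holds empty heavy chains at the transporter until a peptide binds. NLRC5, together with the RFX, CREB/ATF and NF-Y proteins, acts at promoter elements that many of these genes share, and interferon acts through STAT and IRF factors on the same genes. Hepatoma cells can lower these genes, which limits their recognition by T cells. The study concerns immune evasion by tumour cells, and the comparison asks which of these genes differed when NFX1 was overexpressed.

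The sequences upstream of the genes are shown because the members are known for shared control elements, against which their values can be read. RefSeq promoters on GRCh38.p14 were matched by symbol for 7 of the 9 genes, without HLA-E and NLRC5. In each stretch, capitals mark matches on either strand to AANNGAAA (the core of an interferon-response element bound by IRF factors), TGACG (the core of the X2 element bound by CREB/ATF proteins), CCAAT (the NF-Y element, ATTGG on the other strand) and the NF-kappa-B consensus. Adjoining or overlapping matches run together. For the HLA genes the stretch is from -190 to -31 relative to the gene's start, and for the others it is the AANNGAAA matches with up to 30 bases on each side.
HLA-B, chr6:31357210-31357369, minus strand: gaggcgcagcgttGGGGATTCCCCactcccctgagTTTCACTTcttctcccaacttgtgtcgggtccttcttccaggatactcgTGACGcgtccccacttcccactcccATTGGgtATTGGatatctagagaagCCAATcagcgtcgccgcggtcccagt
HLA-C, chr6:31272123-31272282, minus strand: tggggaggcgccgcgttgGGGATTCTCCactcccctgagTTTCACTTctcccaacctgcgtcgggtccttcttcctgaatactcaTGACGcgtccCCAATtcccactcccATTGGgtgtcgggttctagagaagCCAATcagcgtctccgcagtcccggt
HLA-F, chr6:29723244-29723403, plus strand: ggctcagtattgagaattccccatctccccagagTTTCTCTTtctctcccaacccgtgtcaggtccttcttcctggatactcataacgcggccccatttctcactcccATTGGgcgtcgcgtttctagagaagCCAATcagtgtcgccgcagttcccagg
B2M, chr15:44711345-44711418, plus strand: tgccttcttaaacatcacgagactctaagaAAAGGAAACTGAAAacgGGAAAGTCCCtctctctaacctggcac
TAP1, chr6:32853795-32853868, minus strand: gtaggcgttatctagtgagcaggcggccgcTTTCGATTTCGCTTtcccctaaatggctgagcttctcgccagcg
TAP2, chr6:32838758-32838831, minus strand: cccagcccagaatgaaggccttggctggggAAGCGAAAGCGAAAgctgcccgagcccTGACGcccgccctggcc
TAPBP, chr6:33314079-33314126, minus strand: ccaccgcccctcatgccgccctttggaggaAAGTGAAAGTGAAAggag

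AANNGAAA was found in the 250 bases upstream of all 7 genes with a promoter in the table, against 20.3% of 35114 RefSeq promoters. In HLA-B, HLA-C and HLA-F it occurred 1 time each, starting at -155, -151 and -156. B2M, TAP1, TAP2 and TAPBP each held 2 overlapping copies. A longer form, GAANNGAAA, was searched first and was found in 3 of the 7 genes and in 6.56% of all promoters. The shorter form was taken after that count was seen. TAP1 has 2 starts in the table, and the one at 32852761 held none of the 4 motifs.

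TGACG was found upstream of HLA-B, HLA-C, B2M and TAP2, against 21.2% of all promoters. CCAAT was found in 5 of the 7 genes, against 32.0%, and the NF-kappa-B consensus in 5, against 9.96%. TGACG followed within 15 to 35 bases by a reversed CCAAT box was found in HLA-B, HLA-C and B2M, against 0.692% of all promoters, with that spacing chosen after the letters were seen. The first bases of these elements were 25 apart in HLA-C and 26 apart in B2M. HLA-F held 2 CCAAT boxes but not TGACG. A match is a description of these letters and not evidence of binding.

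**Figure D1:**
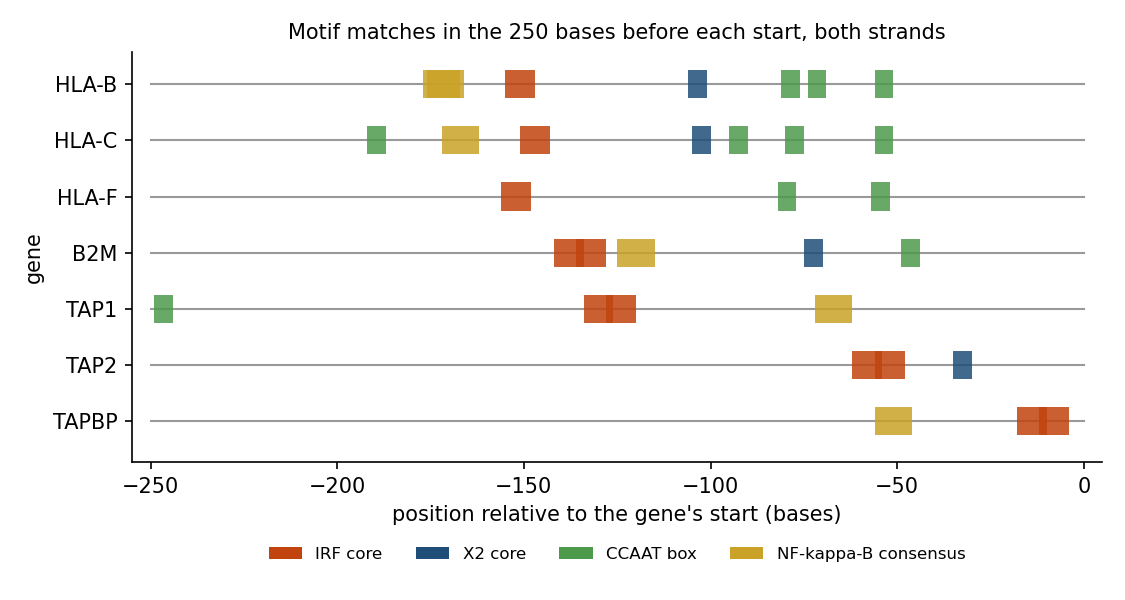
Matches to the 4 motifs in the 250 bases upstream of each gene, with the distance from the gene's start in bases on the horizontal axis and a row for each gene. The X2 core is followed by a CCAAT box in HLA-B, HLA-C and B2M, and the IRF core is present in all 7 rows. The TAP1 start at 32852761, without a match, has no row.

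Among the class I chains, no gene was 25% higher or 20% lower in the NFX1 library (equal steps on a log scale), and HLA-F was the only heavy chain of the set with the higher value in the NFX1 library. HLA-B (hg19 chr6:31321649-31324989), a classical heavy chain that presents peptides to CD8 T cells, had 21.1 FPKM with the vector and 20.6 FPKM with NFX1. HLA-C (chr6:31236526-31239913), a classical chain that is also a main ligand of killer-cell immunoglobulin-like receptors, had 46.7 FPKM with the vector and 42.8 FPKM with NFX1. The NFX1 to vector ratio was 0.976 for HLA-B (0.882 to 1.08, 95% exact interval of counting error). For HLA-C the ratio was 0.915, with an interval of 0.859 to 0.975. These intervals cover counting error only, from fragments estimated with the FPKM, a transcript length and a depth, and they say nothing of the spread between cultures. The HLA-C interval lay below 1 and that of HLA-B covered 1.

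HLA-E (chr6:30457183-30461982), a non-classical chain that presents leader peptides of other heavy chains to the receptor NKG2A on natural killer cells, had 54.8 FPKM with the vector and 54.1 FPKM with NFX1. Its ratio was 0.986 (interval 0.943 to 1.03). HLA-F (chr6:29691117-29716826), a non-classical chain that can reach the surface without peptide, had 17.4 FPKM with the vector and 20.9 FPKM with NFX1. Its ratio of 1.20 (interval 1.09 to 1.33) was the greatest of the 7 genes that passed the FPKM limit. B2M (chr15:45003685-45010357), the light chain common to all class I molecules, had 311 FPKM with the vector and 298 FPKM with NFX1. The B2M ratio was 0.957 (interval 0.928 to 0.986), resting on about 8312 and 9037 fragments.

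Both transporter genes had the higher value in the NFX1 library. TAP1 (chr6:32808494-32821748), the transporter subunit that pairs with TAP2, had 23.5 FPKM with the vector and 25.4 FPKM with NFX1. PSMB8 has the same locus as TAP1, so their reads may not be told apart. TAP2 (chr6:32789610-32806600) had 20.5 FPKM with the vector and 24.0 FPKM with NFX1. The ratio was 1.08 for TAP1 (interval 1.02 to 1.15) and 1.17 for TAP2 (interval 1.12 to 1.23), so both intervals lay above 1. For TAP2, 35.8% of the 50-base windows of its transcript also occurred in a transcript of another gene, and its reads may have been shared with that model. For the other members this share was at most 6.71%, in HLA-C.

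TAPBP, which bridges the transporter and the heavy chain, had no row of its own. It stands in a row shared with ZBTB22 (chr6:33267472-33285719), with 76.0 FPKM with the vector and 85.8 FPKM with NFX1, a ratio of 1.13. Reads of the 2 genes cannot be told apart there, and the row was left out of the counts. NLRC5 (chr16:57050986-57117436), the class I transactivator, had 0.153 FPKM with the vector and 0.203 FPKM with NFX1. These are about 27 and 41 fragments, and the interval of the ratio, 0.802 to 2.26, covered 1. A difference in NLRC5 was therefore not detectable at this depth.

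The symbol occurred in 6 rows for HLA-B and HLA-F, 7 for HLA-C and HLA-E, 8 for TAP1 and TAP2, and 1 each for B2M and NLRC5. The additional rows were on 7 alternative haplotypes of chromosome 6, and all 1190 rows on these haplotypes were listed at 0 in both libraries. The levels of the HLA chains therefore come from the primary chromosome 6 alone. How far the alleles of the line differ from that reference, and how this affects the number of mapped reads, was not tested.

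**Figure D2:**
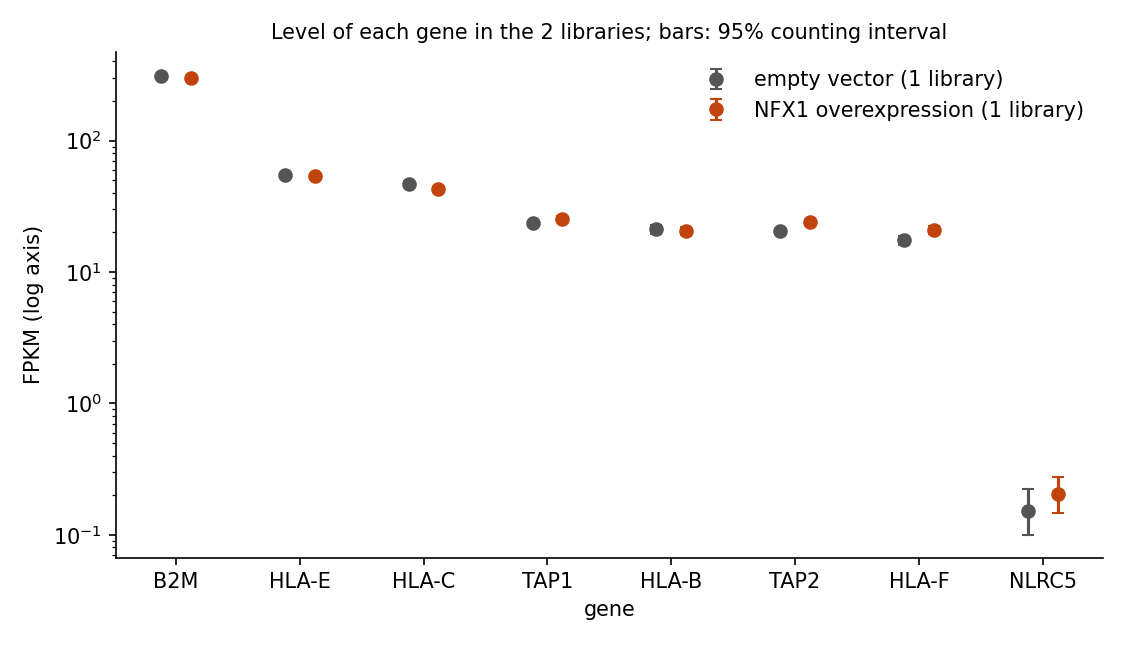
FPKM of the 8 genes with a row of their own in the vector and NFX1 libraries, on a log axis, with 95% exact Poisson intervals of counting error as bars. B2M is highest at 311 and 298 FPKM, NLRC5 is lowest at 0.153 and 0.203 FPKM, and the other 6 genes lie between 17.4 and 54.8 FPKM.

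The order of the levels was the same at the top and bottom in both libraries: B2M, HLA-E, HLA-C and TAP1 came first and NLRC5 last. HLA-B, TAP2 and HLA-F followed TAP1 in that order in the vector library, and TAP2, HLA-F and HLA-B in the NFX1 library. Counting intervals overlapped between TAP1 and HLA-B and between HLA-B and TAP2 in the vector library. In the NFX1 library they overlapped between TAP1 and TAP2 and between HLA-F and HLA-B. In the vector library B2M was above 97.3% of expressed genes, HLA-E above 84.8% and HLA-F above 62.7%.

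As a group, the class I genes did not move one way. Of the 7 genes that passed the FPKM limit, 3 were higher in the NFX1 library (HLA-F, TAP1 and TAP2), against 52.0% of the 11182 expressed genes, and 4 were lower (HLA-B, HLA-C, HLA-E and B2M), against 48.0%. NLRC5, under the limit, had the higher value in the NFX1 library, which makes 4 higher and 4 lower of the 8 with a row. On the scale of FPKM + 1, none of the 8 was at least 25% higher, as 6.12% of expressed genes were, and none at least 20% lower, as 2.30% were. At least 10% higher were 2 (HLA-F and TAP2), as were 29.4% of expressed genes. At the 2-fold limit the count was 0, where 0.107% of expressed genes were higher and 0.0358% lower. The counting interval lay above 1 for 3 of the 7 (HLA-F, TAP1 and TAP2), against 32.3% of 10620 genes with a transcript length. It lay below 1 for 2 (HLA-C and B2M), against 23.1%. These shares are near those over all genes.

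The change of a gene is given as log2((NFX1 FPKM + 1)/(vector FPKM + 1)), which understates the change of low genes. It was -0.12 for HLA-C, -0.06 for B2M, -0.03 for HLA-B, -0.02 for HLA-E, 0.06 for NLRC5, 0.11 for TAP1, 0.22 for TAP2 and 0.25 for HLA-F. The median was -0.02 over the 7 genes that passed the FPKM limit and 0.02 with NLRC5, against 0.01 over all expressed genes. Its sign thus rests on NLRC5 and on the processing. With NLRC5 kept, the median was -0.0024 at a pseudocount of 5 FPKM and -0.026 after scaling by the upper quartile. All 8 changes lay between the 5th and 95th percentiles of expressed genes, -0.26 and 0.34. In the authors' deposited table, the q-value of each of the 7 tested genes was 0.999 and the smallest p-value was 0.307, for HLA-F. NLRC5 was not tested in the authors' deposited table.

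**Figure D3:**
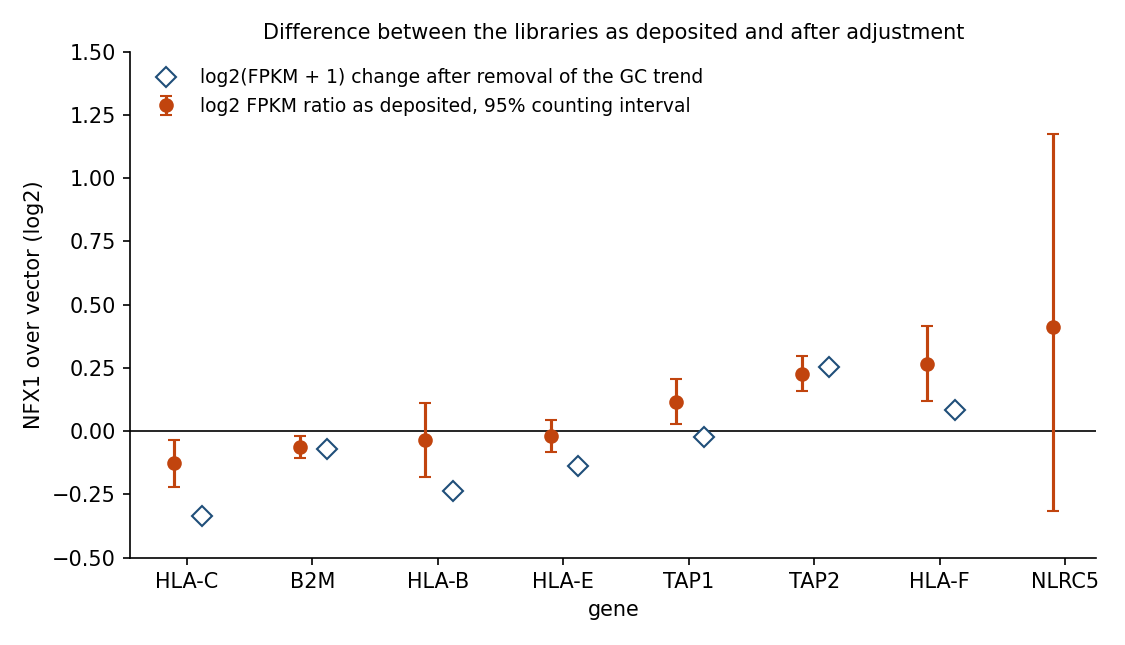
NFX1 over vector for each gene on a log2 axis. Filled points are the ratio of the deposited FPKM with its 95% counting interval as bars, and open diamonds the log2(FPKM + 1) change with the trend removed, which NLRC5 lacks. The diamond of HLA-C lies at -0.34, below its interval, that of TAP2 at 0.25, inside its interval, and the interval of NLRC5 is the widest.

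The heavy chains are rich in G and C, and the change of all genes moved with base composition in these libraries. Across quintiles of expressed genes by transcript GC content, from the lowest to the highest, the median change was -0.11, -0.10, -0.00, 0.13 and 0.20. HLA-B (61.4% GC) and HLA-C (60.2%) were in the highest quintile, and HLA-E, HLA-F and TAP1 in the fourth. TAP2 (49.0%) was in the third and B2M (39.6%) in the lowest. HLA-B and HLA-C were thus below the median of genes of like GC content, and TAP2 was above it. The cause of the trend was not tested.

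Splines on GC content, transcript length and level took 41.2% of the variance of the change, counted over those of 10620 genes within 2-fold. After this trend was removed, 5 of the 7 measured members had a negative adjusted change, against 49.8% of all genes. A negative value is below the trend, and TAP1, among the 5, was higher as deposited. The adjusted change was -0.34 for HLA-C, -0.24 for HLA-B, -0.14 for HLA-E, -0.07 for B2M, -0.02 for TAP1, 0.08 for HLA-F and 0.25 for TAP2. HLA-C was then at least 20% below the trend, as were 1.89% of all genes. With GC content alone its value was -0.30, short of that limit. Among all adjusted changes HLA-C stood at percentile 1.74, HLA-B at percentile 4.36 and TAP2 at percentile 96.3. HLA-B and HLA-C on one side and TAP2 on the other were at opposite ends of the adjusted range.

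**Figure D4:**
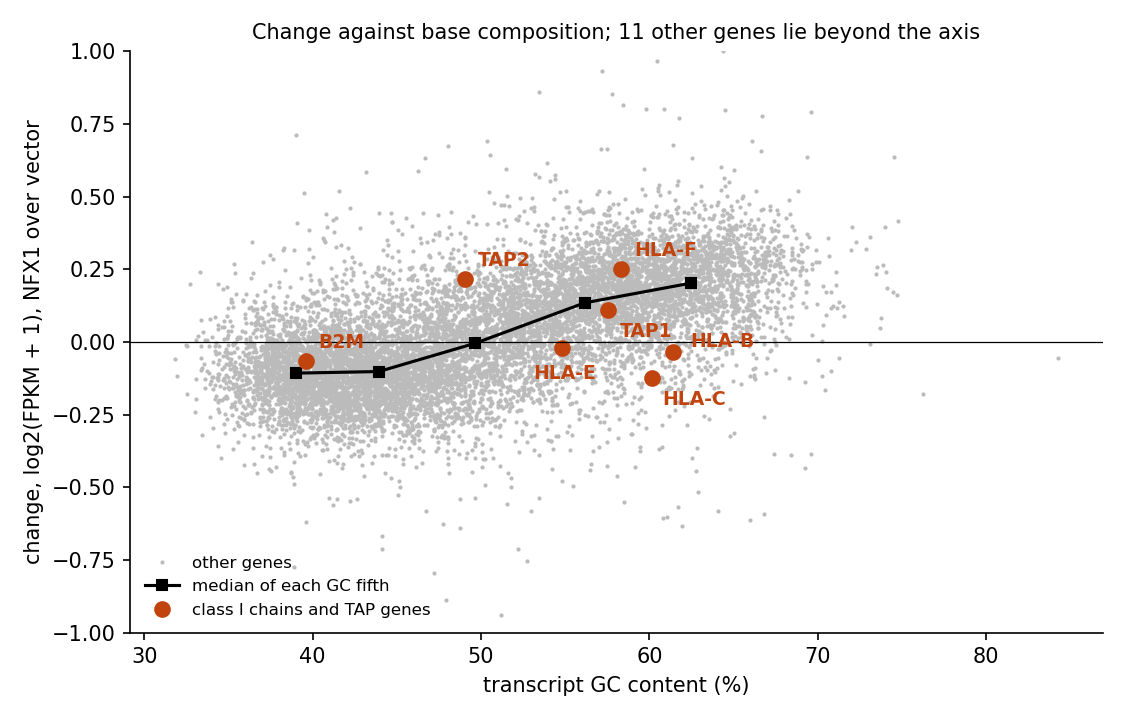
Change of expressed genes against the GC content of their transcripts in percent, with the median of each quintile of genes and the class I genes labelled. The medians go from -0.11 in the lowest quintile to 0.20 in the highest, and HLA-B and HLA-C lie below the highest quintile's median.

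All members but B2M and NLRC5 lie in the MHC region of chromosome 6. Between the outermost of them (hg19 chr6:29691117-33285719), 84 genes passed the FPKM limit. With NFX1, 75 of these were higher and 9 lower, where 52.0% of all expressed genes were higher, and their median change was 0.17. Without the 6 members there, 72 of 78 were higher. The 84 genes had a median GC content of 56.8%, against 49.7% over all genes. After removal of the trend their median was 0.04, and 50 of 82 had a positive adjusted change, against 50.2% of all genes. HLA-C, HLA-B and HLA-E ranked 5th, 8th and 9th from the lowest of the 84 as deposited, and 1st, 5th and 10th of 82 after adjustment. TAP2 ranked 59th as deposited and 77th after adjustment.

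Among genes of the region with at least 5 FPKM in a library, the greatest increases were in HLA-DMB, APOM and C6orf136. HLA-DMB, a subunit of the class II peptide exchanger, had 15.5 FPKM with the vector and 22.3 FPKM with NFX1. APOM, an apolipoprotein that carries sphingosine-1-phosphate, had 77.2 and 109 FPKM in the same order, and C6orf136 had 18.0 and 24.7 FPKM. The greatest decreases were in LOC100507547 (7.15 and 5.15 FPKM), ABCF1, an ABC protein of translation initiation (62.0 and 56.0 FPKM), and HLA-C itself. APOM has the same locus in the table as BAG6, C6orf136 as DHX16, LOC100507547 as AGPAT1 and ABCF1 as a microRNA gene, so reads of each pair may not be told apart.

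**Figure D5:**
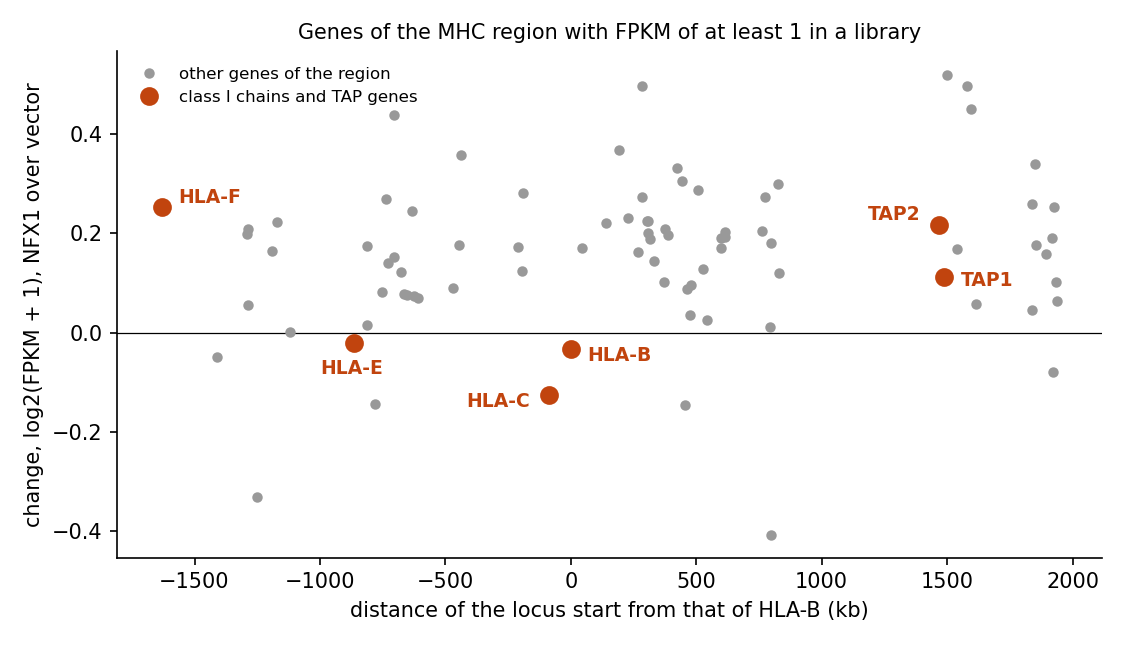
Change of the 84 expressed genes of the MHC region against the distance of their locus start from that of HLA-B in kilobases, with the class I chains of the set and the TAP genes in colour and all other genes in grey. Of the 84 genes 75 lie above 0, and HLA-B, HLA-C and HLA-E lie below it.

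Other genes of the class I pathway were read from 7 lists with 48 genes, of which 39 passed the FPKM limit. Of these, 19 were higher and 20 lower in the NFX1 library, against 52.0% and 48.0% of all expressed genes, shares against which each list can be read. On the scale of FPKM + 1, 5 were at least 25% higher, against 6.12%, and none was at least 20% lower, against 2.30%. As plain FPKM ratios, JAK1 (0.799), ERAP1 (0.791) and IRF2 (0.761) were at least 20% lower. RFXAP (1.38) was then also at least 25% higher. The median over the 39 was -0.00, against 0.01 over all expressed genes. None of the 39 passed 2-fold on the scale of FPKM + 1.

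The chaperones that work beside tapasin were expressed well above the heavy chains of the set. CANX (calnexin), which holds newly made heavy chains, had 216 FPKM with the vector and 181 FPKM with NFX1. PDIA3, the disulphide isomerase bound to tapasin, had 290.0 and 261 FPKM in that order. CALR (calreticulin) had 1442 FPKM with the vector and 1484 FPKM with NFX1. Of 3 measured chaperones 1 was higher and 2 lower, with a median change of -0.15, and TAPBPL was under the limit.

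Among other chains that pair with B2M or resemble class I, 3 of 5 were measured, 1 higher and 2 lower, with a median of -0.11 as deposited and -0.0018 after adjustment. FCGRT, the neonatal Fc receptor that recycles IgG and albumin, had 38.0 FPKM with the vector and 46.4 FPKM with NFX1. HFE, a regulator of hepcidin, had 19.6 and 18.1 FPKM, and MR1, which presents vitamin B metabolites, had 2.13 and 1.80 FPKM. HLA-G was listed at 0 in both libraries.

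The 4 measured genes of the immunoproteasome and its PA28 activator were each higher in the NFX1 library, where 52.0% of all genes were. Their median was 0.14 as deposited and 0.04 after adjustment, when 3 were positive and PSMB10 was negative, at -0.13. PSMB9, a catalytic subunit induced by interferon whose locus begins 189 bp beyond that of TAP1, had 2.01 FPKM with the vector and 3.32 FPKM with NFX1. Its ratio of 1.65 rested on about 42 and 78 fragments and had an interval of 1.11 to 2.44. PSME1 had 60.2 and 69.0 FPKM, PSME2 had 120.1 and 128 FPKM, and PSMB10 had 9.89 and 10.3 FPKM. PSMB8 was under the limit at 0.520 and 0.436 FPKM, in a row with the same locus as TAP1, so its reads may not be told apart from those of TAP1.

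Of the trimming peptidases, 2 of 5 measured were higher and 3 lower, with a median of -0.00 as deposited and 0.12 after adjustment. ERAP1, which trims peptides in the endoplasmic reticulum, had 9.50 FPKM with the vector and 7.51 FPKM with NFX1. THOP1, a cytosolic peptidase that destroys peptides, had 53.4 and 68.2 FPKM. NPEPPS had 14.6 and 13.5 FPKM, and TPP2 had 4.40 and 4.43 FPKM.

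The factors that act with NLRC5 at class I promoters were evenly divided, with 4 of 8 measured higher and 4 lower and a median of 0.01 as deposited and 0.03 after adjustment. RFXANK, a subunit of the RFX complex, had 94.2 FPKM with the vector and 123 FPKM with NFX1. RFXAP, another subunit, had 1.02 and 1.41 FPKM, ATF1 had 6.60 and 5.64 FPKM, and NFYA had 5.60 and 5.09 FPKM. CIITA, the class II counterpart of NLRC5, was under the limit.

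Of 11 measured genes of interferon signalling, 3 were higher and 8 lower, where 48.0% of all genes were lower, with a median of -0.12. JAK1, a kinase of both interferon receptors, had 47.9 FPKM with the vector and 38.3 FPKM with NFX1. IRF1, a factor that binds the IRF element, had 6.72 and 8.65 FPKM, and its paralog IRF2 had 2.38 and 1.81 FPKM. TYK2, a kinase of the type I receptor, had 14.4 and 17.1 FPKM. After adjustment 9 of the 11 changes were negative, with a median of -0.14.

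Genes reported to act in the turnover of class I molecules were higher in 4 of 5 measured cases, where 52.0% of all genes were, with a median of 0.19 as deposited and 0.13 after adjustment. WWP2, a ubiquitin ligase, had 15.5 FPKM with the vector and 18.4 FPKM with NFX1, and SUSD6 had 7.29 and 8.48 FPKM. NBR1, an autophagy receptor, had 9.53 and 8.61 FPKM.

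The labels and the cells were checked on other genes. NFX1 had 4.21 FPKM with the vector and 56.0 FPKM with NFX1, a ratio of 13.3. Depth was estimated at 26.38 M fragments in the vector library and 29.98 M in the NFX1 library. All 8 hepatocyte markers were measured, with summed levels of 6959 and 7891 FPKM, most of it SERPINA1, and ALB was at 0.776 and 1.06 FPKM. Of 8 leukocyte markers, 2 were measured (CORO1A and LAPTM5), PTPRC and CD3E were listed at 0 in both libraries, and the summed levels were 5.05 and 6.50 FPKM. None of 4 endothelial and 4 fibroblast markers reached 1 FPKM.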

How the data were processed

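RNA from 1 library per group was sequenced. TopHat2 2.1.0, Cufflinks 2.2.1 and hg19 were named, per the submitters' processing notes; the annotation, settings and scaling are not given in the sources used here. Per the file headers, the deposited table holds FPKM for each library, and also a score for each test, its p-value and q-value, and the log2 ratio.

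Rows with 1 symbol were used, the one with the highest mean where a symbol repeated. Changes were computed with a pseudocount of 1 FPKM where either library reached 1 FPKM, and no p-value was computed. Depth was taken from the FPKM steps of single-exon olfactory receptor loci under 1100 bp (10 in the vector library, 12 in the NFX1 library). Fragments per gene used transcript lengths of GENCODE 29, joined on the symbol; no coordinates were taken from it, since it is on GRCh38. Transcripts under 50% of a symbol's longest were dropped, a rule adopted after a value for HLA-B was seen. Intervals are exact (Clopper-Pearson for ratios, Poisson for levels) and cover counting error only. The trend was fitted with cubic splines (5 knots) on genes within 2-fold.

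All 9 members and NFX1 are named, with up to 4 genes per list by absolute change and, in the MHC region, the 3 greatest increases and decreases. A gene picked by this rule is not reported here but is kept in the counts and medians. Other genes named as under the limit or listed at 0, and the marker genes, were chosen after their values were seen. Members, lists and rules were chosen with earlier results of these data known. As TAPBP had no row of its own, the region was ended at its shared locus. Motif matches and the printed stretches were chosen after the letters were seen. Alternatives covered the pseudocount, scaling, filter, summed rows, fold limits, row status and the trend. The steps were tested on simulated data. Scripts ran on scikit-learn 1.9.0, scipy 1.17.1, pandas 2.3.3, numpy 2.4.6, matplotlib 3.10.9 and Python 3.11.15.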

Additional observations from a re-analysis of the deposited data

How the results depend on the processing

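No paired analysis was possible because each group has 1 library, and for the same reason no library could be left out. Of 54 alternative values of single members, 39 stayed within the counting interval, 12 were counted as moved beyond it and 3 changed sign. The sign changes were TAP1 to -0.023 after removal of the trend, and TAP1 to -0.034 and B2M to 0.039 with GC content alone. The fit on GC content alone was added after seeing the data. The 12 include NLRC5 at a pseudocount of 0.1 FPKM (0.26), although the interval of its FPKM ratio, 0.802 to 2.26, holds that value. With the trend removed, the members had a median of -0.072, members above 0 numbered 2, and 1 was at least 20% below the trend. The list medians then were -0.0018 for class I-like chains and 0.12 for trimming peptidases, and the MHC region's was 0.040. With a limit of 1.1-fold, 2 members were higher, as were 29.4% of all genes. Without a filter, 2.98% of all genes were at least 25% higher and 1.252% at least 20% lower. Leaving out NLRC5, an alternative also added after seeing the data, gave a median of -0.020. Scaling by the median or upper quartile shifted all genes by -0.01 or -0.07. At this depth NLRC5 allows no comparison, and counting intervals leave out the spread between cultures.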
